A study of Rattus norvegicus with 16 samples.

Results

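The genes of LIF, OSM and CNTF signalling and of its SOCS inhibitors were followed through the sutured rat cornea, from the ligands to the feedback proteins. The set holds 10 gene symbols, namely *Lif*, *Osm*, *Cntf*, *Lifr*, *Osmr*, *Jak2*, *Socs1*, *Socs2*, *Socs3* and *Cish*, and a probe set was taken where its single gene symbol was one of them. This gave 12 probe sets for 9 genes, of 31042 probe sets and 14217 genes tested in all. No probe set had *Osmr* as its single symbol, so *Osmr* was not analysed here. RNA of 16 corneas of male Wistar rats aged 12 to 16 weeks was measured on 1 Affymetrix array per cornea, with 4 corneas per group. Naïve corneas had no suture and no drops. In the other 3 groups, 2 sutures were set 1.5 mm from the limbus in the temporal cornea, a wound that draws inflammatory cells and later vessels, and goat IgG (the sham treatment), rat-specific anti-*Vegf* or dexamethasone, a glucocorticoid, was dropped on the eye 4 times per day for 2 days, 8 drops in all. Dexamethasone was at 1 mg/ml and both antibodies were labelled 20 mg/ml. The methods text has µg/ml as the unit of the antibodies. The characteristics of the sham arrays name an anti-IgG antibody. The labels give the tissue as cornea without the scleral rim, while the methods give the area between sutures and temporal limbus, and the arrays of a group are 4 of 6 corneas chosen for RNA integrity. There was no sutured cornea without drops.

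LIF, OSM and CNTF are cytokines of the IL-6 family. They bind receptor complexes that contain gp130 (*Il6st*), often together with the LIF receptor, and these switch on JAK kinases, which phosphorylate STAT3 and other STAT proteins. STAT proteins in turn raise transcription of SOCS genes, whose products bind the receptor or the kinase and end the signal, so the level of a SOCS transcript is widely used as a trace of recent cytokine signalling. In the cornea this family is known for its part in epithelial wound repair, leukocyte recruitment and nerve repair.

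Differences come from a limma fit of all 16 arrays. The call limit was an adjusted p under 0.05, and against naïve corneas the means also had to be 1.5-fold apart or more. All signals are on the log2 scale of RMA, so that a difference of 1 is a doubling, and errors are SD between 4 arrays or the standard error (SE) of the fit. A gene with several probe sets was read from the brightest. These p-values measure the spread between the arrays only. In whole tissue, fewer cells of a type and less RNA per cell cannot be told apart.

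The labelled tissue showed its defining markers, and some of them moved with suturing. *Krt12*, a corneal keratin, averaged 14.76 in naïve corneas and 14.70 in each treatment, near the top of the signal scale, where a change could go unseen. Of 4 measured epithelial markers (5 listed), *Krt14*, a basal keratin, was called higher with IgG, anti-*Vegf* and dexamethasone by 1.62, 1.69 and 1.55, and *Pax6* was −0.44, −0.45 and −0.54 from naïve, under the fold limit (adjusted p = 0.0238, 0.0208 and 0.00805). Of 3 corneal endothelium markers, 3 were called lower with IgG, 3 with anti-*Vegf* and 2 with dexamethasone, with medians of −1.26, −1.42 and −0.76. The 24 probe sets of poly-A control RNA, which is added before labelling, averaged 7.08 with IgG, 6.88 with anti-*Vegf*, 5.17 with dexamethasone and 5.10 in naïve corneas. They differed by 1.98 between IgG and naïve, 1.78 between anti-*Vegf* and naïve, −1.91 between dexamethasone and IgG and −1.71 between dexamethasone and anti-*Vegf* (p = 0.0286 each, exact permutation test, two-sided). Dexamethasone and naïve corneas were 0.07 apart (exact p = 0.543). The split follows the groups, so whatever sets it cannot be told apart from the treatment in those 4 comparisons. The 5′ minus 3′ signal of the actin probe sets averaged −1.28 in naïve corneas, −0.71 with IgG, −0.87 with anti-*Vegf* and −1.17 with dexamethasone, and differed by 0.58 between IgG and naïve and by −0.46 between dexamethasone and IgG (exact p = 0.0286 each).

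*Socs3* and *Jak2* rose in all sutured groups, *Cntf* rose with IgG and anti-*Vegf*, and *Socs2* was higher with dexamethasone than in every other group. *Lif*, *Osm*, *Lifr*, *Socs1* and *Cish* were not called on their brightest probe sets. In IgG corneas 3 of the 9 genes were called higher than naïve, where 6.32% of all genes were, and 0 were called lower, where 5.02% were. In anti-*Vegf* corneas 3 were higher (6.82% of all genes) and 0 lower (5.94%). In dexamethasone corneas 3 were higher (8.19%) and 0 lower (4.45%). The called genes were *Cntf*, *Jak2* and *Socs3* in IgG and in anti-*Vegf* corneas, and *Jak2*, *Socs2* and *Socs3* in dexamethasone corneas. All of these comparisons share the 4 naïve arrays. The median log2 difference of the 9 genes was 0.09, −0.00 and 0.38 in IgG, anti-*Vegf* and dexamethasone corneas, and that of all genes was −0.01, −0.01 and 0.00.

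Between treatments, dexamethasone corneas had 1 gene higher than IgG corneas (7.41% of all genes) and 1 lower (3.16%), which were *Socs2* and *Socs3*. Against anti-*Vegf* corneas 1 gene was higher (4.63%) and 1 lower (2.5%), which were *Socs2* and *Cntf*. Anti-*Vegf* and IgG corneas differed in 0 of the 9 genes by limma, where 0% of all genes were called, and 2 of the 9 had an unadjusted p under 0.05, where 942 of 14217 genes did.

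**Figure D1:**
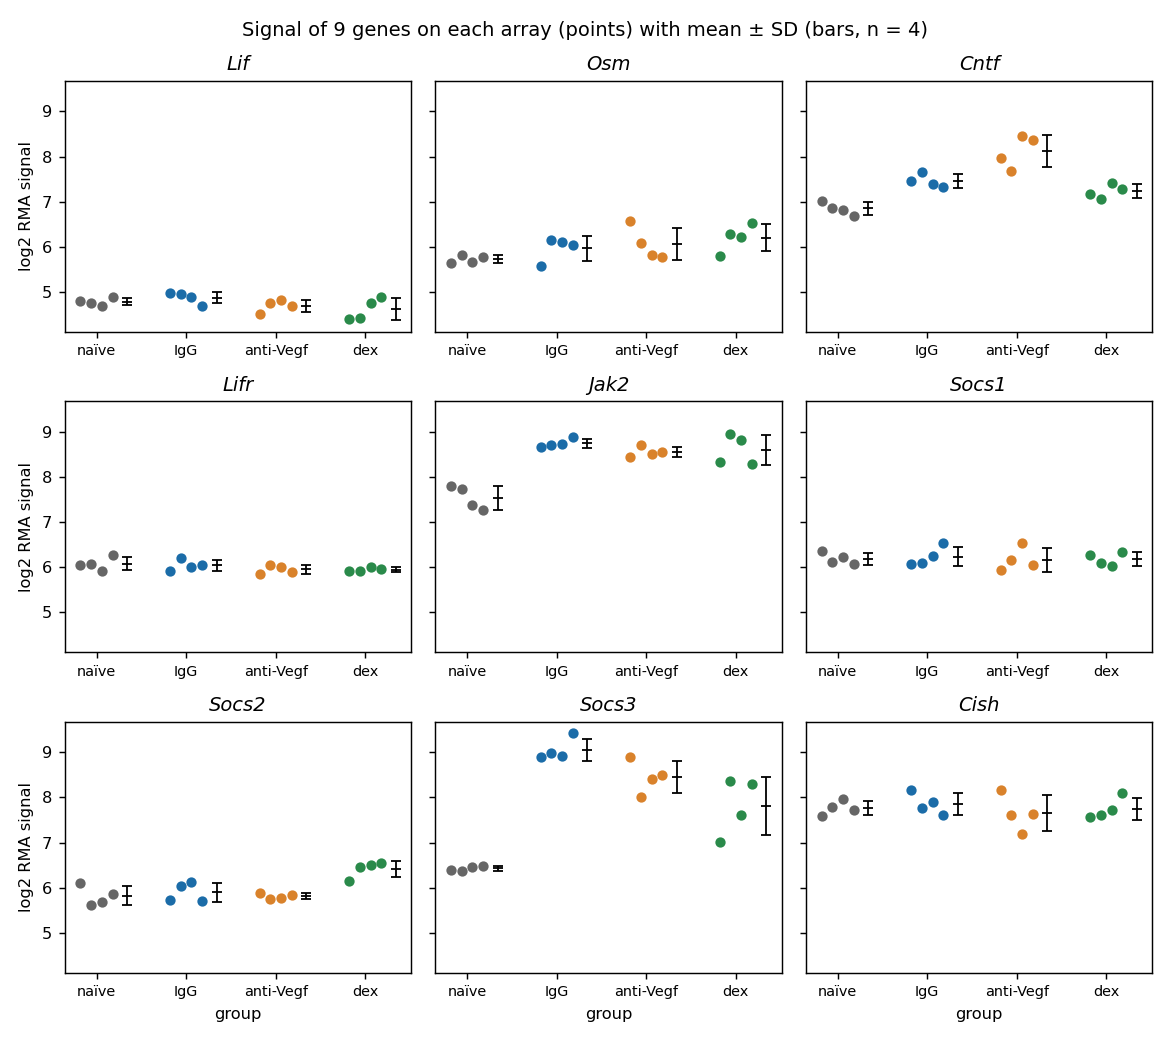
Log2 RMA signal (y axis) of the 9 genes on their brightest probe sets in naïve, IgG, anti-Vegf and dexamethasone (dex) corneas. Each point is 1 array and the bar beside it is the mean ± SD of 4 arrays. Socs3 and Jak2 of all sutured corneas lie above all naïve corneas, Cntf is highest with anti-Vegf, and Socs2 is highest with dexamethasone.

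Of the ligands, *Lif*, which acts on the *Lifr* and gp130 pair, had a low and even signal. On the naïve arrays 1 to 4 it was 4.81, 4.75, 4.69 and 4.89. On the IgG arrays F17, F19, F22 and F23 it was 4.98, 4.95, 4.88 and 4.70, on the anti-*Vegf* arrays F1x, F2, F6 and F7 it was 4.51, 4.75, 4.82 and 4.69, and on the dexamethasone arrays F25, F26, F27 and F30 it was 4.40, 4.42, 4.76 and 4.89. The arrays of every pair of groups overlapped. The probe set lay below the 40th percentile of signal on all 16 arrays, so a change of a weak transcript could be missed here. The differences from naïve were 0.09, −0.09 and −0.17 (SE 0.11 each), and dexamethasone minus IgG was −0.26 with a 95% confidence interval of −0.50 to −0.03 (adjusted p = 0.155).

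*Osm*, the oncostatin M that activated leukocytes release, was 5.64, 5.82, 5.66 and 5.78 on the naïve arrays. It was 5.57, 6.16, 6.10 and 6.03 with IgG, 6.57, 6.08, 5.83 and 5.78 with anti-*Vegf*, and 5.79, 6.28, 6.22 and 6.52 with dexamethasone. Most sutured corneas lay above the naïve corneas, but 1 or more arrays of each treatment did not. The mean difference from naïve was 0.24 with IgG, 0.34 with anti-*Vegf* and 0.48 with dexamethasone (SE 0.18), and the last had an adjusted p of 0.0664. Without dexamethasone array F25 it was 0.61 and was called (adjusted p = 0.0184). That array also had the lowest mean signal of the 5 neutrophil markers among sutured corneas, 7.61, beside 8.51 to 9.44 on the other dexamethasone arrays. IgG array F17 had the lowest *Osm* of the sutured corneas, 5.57, and a neutrophil mean of 9.01. The part of neutrophils in the *Osm* values was not tested.

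*Cntf*, ciliary neurotrophic factor, is known as a survival factor of neurons that Schwann cells hold and release after injury. It was 7.02, 6.87, 6.82 and 6.68 on the naïve arrays, 7.45, 7.67, 7.40 and 7.33 with IgG, 7.97, 7.69, 8.45 and 8.37 with anti-*Vegf*, and 7.17, 7.05, 7.42 and 7.28 with dexamethasone. Every sutured cornea was above every naïve cornea, and every anti-*Vegf* cornea was above every other cornea, although the lowest anti-*Vegf* array was only 0.02 above the highest IgG array. *Cntf* rose 2.41-fold with anti-*Vegf* (log2 difference 1.27, SE 0.15, adjusted p = 1.46e-05) and 1.53-fold with IgG (0.61, SE 0.15, adjusted p = 0.00532), close to the limit of 1.5. The IgG value fell under that limit after centring the arrays on reference genes (0.47) and without IgG array F19 (0.54) or naïve array 4 (0.56). With dexamethasone it was 1.30-fold the naïve level (0.38, SE 0.15, adjusted p = 0.0751).

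Between treatments *Cntf* was lower with dexamethasone than with anti-*Vegf* by 0.89 on the log2 scale (95% confidence interval −1.20 to −0.58, adjusted p = 0.0025). Anti-*Vegf* minus IgG was 0.66 (interval 0.35 to 0.97), with an adjusted p of 0.326 over all probe sets. Dexamethasone minus IgG was −0.23 (interval −0.54 to 0.08, adjusted p = 0.352). Of the 5 measured Schwann cell and nerve markers of 7 listed, 0 were called higher and 1, *S100b*, was called lower than naïve in each treatment, by 1.07, 1.37 and 0.83 on the log2 scale in IgG, anti-*Vegf* and dexamethasone corneas. The mean log2 signal of the 5 markers was 7.72 to 7.97 on naïve arrays, 7.51 to 7.68 with IgG, 7.26 to 7.68 with anti-*Vegf* and 7.44 to 7.76 with dexamethasone. Its group mean was lowest with anti-*Vegf*, at 7.51, the group with the highest *Cntf*, and its part in the *Cntf* result was not tested. *Cntf* was called in IgG and anti-*Vegf* against naïve and in dexamethasone against anti-*Vegf*. The poly-A controls also differed there, by 1.98, 1.78 and −1.71, in the same direction as *Cntf*. Anti-*Vegf* minus IgG, not called, had opposite signs, with poly-A at −0.20 (exact permutation p = 0.229) and *Cntf* at 0.66. Dexamethasone minus IgG was −1.91 for poly-A and −0.23 for *Cntf*, which was not called. Dexamethasone minus naïve was 0.07 for poly-A and 0.38 for *Cntf*, also not called. The part of the poly-A difference in the *Cntf* result was not tested. In the gene table *Cntf* lies beside *Zfp91*, with which read-through transcripts are known in human. None of the 8 *Zfp91* probe sets was called in any comparison (anti-*Vegf* minus naïve −0.21 to 0.27). Several passed the limit of adjusted p against naïve, in both directions, and missed only the fold limit. The lowest and highest with anti-*Vegf* had adjusted p of 0.0497 and 0.00832. *Zfp91* was looked at after the *Cntf* values were seen, and read-through was not tested.

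Of the receptors, *Lifr*, the signalling receptor of LIF that also joins the CNTF complex, was read by 2 probe sets that differed. On the brighter one it lay between 5.86 and 6.27 on all 16 arrays and differed from naïve by −0.03, −0.13 and −0.13 in IgG, anti-*Vegf* and dexamethasone corneas (SE 0.08, adjusted p = 0.818, 0.296 and 0.312). On the dimmer one, which lay at the 11.1th percentile of all probe sets, it was 4.85, 4.51, 4.29 and 4.73 on the naïve arrays. It was 3.97, 4.00, 3.94 and 3.91 with IgG, 4.39, 3.67, 4.06 and 3.68 with anti-*Vegf*, and 4.17, 3.78, 4.01 and 3.79 with dexamethasone. All but 1 sutured cornea, anti-*Vegf* F1x, lay below all naïve corneas on this probe set. Its differences of −0.64, −0.65 and −0.66 (SE 0.15) were called lower in all 3 comparisons (adjusted p = 0.00514, 0.00481 and 0.00494). The 2 probe sets thus give different answers for *Lifr*, and which transcripts each one reads was not tested.

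*Jak2*, a kinase that gp130 receptors and many other cytokine receptors use, rose to about the same level in all sutured corneas. It was 7.79, 7.73, 7.37 and 7.26 on the naïve arrays, 8.67, 8.70, 8.73 and 8.88 with IgG, 8.44, 8.71, 8.50 and 8.56 with anti-*Vegf*, and 8.34, 8.95, 8.82 and 8.29 with dexamethasone. The lowest sutured cornea was 0.50 above the highest naïve one. The rise was 2.31-fold with IgG, 2.02-fold with anti-*Vegf* and 2.09-fold with dexamethasone (log2 differences 1.21, 1.01 and 1.06, SE 0.15 each, adjusted p = 2.78e-05, 0.000117 and 9.09e-05). The treatments overlapped. Dexamethasone minus IgG was −0.15 (95% confidence interval −0.46 to 0.17), dexamethasone minus anti-*Vegf* was 0.05 (−0.26 to 0.36) and anti-*Vegf* minus IgG was −0.19 (−0.51 to 0.12).

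**Figure D2:**
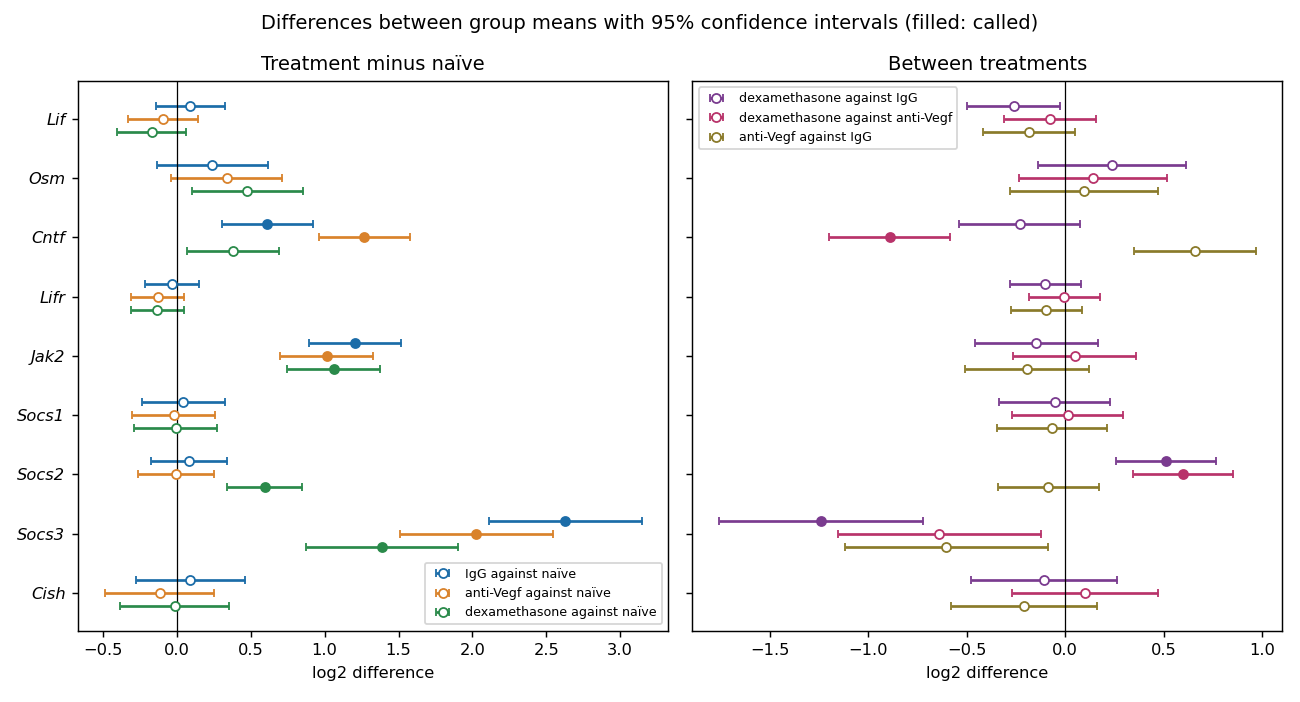
Log2 differences between group means (x axis) of the 9 genes, with 95% confidence intervals of the limma fit. The left panel shows each treatment minus naïve and the right panel the treatments against each other, and filled points passed the call limits. Socs3 has the largest differences from naïve of the 9 genes, and Socs2 is called in each comparison with dexamethasone.

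Among the inhibitors, *Socs3*, which binds gp130 and its JAK kinase and is a textbook target of STAT3, had the largest differences from naïve of the 9 genes. On the naïve arrays it was 6.40, 6.36, 6.46 and 6.48. It was 8.90, 8.98, 8.91 and 9.42 with IgG, 8.89, 8.01, 8.42 and 8.49 with anti-*Vegf*, and 7.01, 8.35, 7.60 and 8.29 with dexamethasone. All sutured corneas lay above the naïve range, which spanned 0.12, while the dexamethasone corneas spread over 1.35. *Socs3* rose 6.18-fold with IgG, 4.07-fold with anti-*Vegf* and 2.62-fold with dexamethasone (log2 differences 2.63, 2.03 and 1.39, SE 0.24, adjusted p = 2e-06, 2.2e-05 and 0.000634).

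The groups stood in the order IgG, anti-*Vegf*, dexamethasone and naïve, with means ± SD of 9.05 ± 0.25, 8.45 ± 0.36, 7.81 ± 0.64 and 6.43 ± 0.05 (n = 4 each). Dexamethasone was below IgG by 1.24 on the log2 scale (95% confidence interval −1.76 to −0.72, adjusted p = 0.00497), and the highest dexamethasone array was 0.55 below the lowest IgG array. This call was kept with each of the 16 arrays left out in turn, with differences between −1.42 and −0.97. Dexamethasone and naïve, neighbours in the order, differed as given above, while the other neighbours were not called by limma. Dexamethasone minus anti-*Vegf* was −0.64 (interval −1.15 to −0.12, adjusted p = 0.132) with overlapping arrays, and anti-*Vegf* minus IgG was −0.60 (interval −1.12 to −0.09, adjusted p = 0.749), with every anti-*Vegf* array at least 0.01 below every IgG array (exact permutation test, two-sided, p = 0.0286, the smallest that 4 against 4 arrays can give, with no adjustment).

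Leukocyte markers and control RNAs also differed between these groups, and their part in the *Socs3* difference was not tested. The mean of 5 measured neutrophil markers of 6 listed was 5.43 to 5.52 on naïve arrays, 8.82 to 9.17 with IgG, 8.66 to 8.85 with anti-*Vegf* and 7.61 to 9.44 with dexamethasone. Of them 4 (*S100a8*, *S100a9*, *Csf3r* and *Cxcr2*) were called higher than naïve in each treatment, and 0 were called between dexamethasone and IgG. Among dexamethasone corneas the array with the lowest *Socs3*, F25, had the lowest neutrophil mean, 7.61, and the array with the highest, F26, had the highest, 9.44. In IgG and anti-*Vegf* corneas the highest *Socs3*, on F23 and F1x, also went with the highest neutrophil mean, 9.17 and 8.85. The lowest *Socs3* of these groups, on F17 and F2, did not go with the lowest neutrophil mean (9.01 and 8.79). The mean of the 7 monocyte and macrophage markers was 6.80 to 7.58 with IgG and 6.49 to 7.33 with dexamethasone, and 2 of them, *Cd68* and *Ms4a7*, were lower with dexamethasone by 0.86 and 1.22 on the log2 scale. The other 5 were not called and went both ways. *Adgre1*, *Cd14* and *Csf1r* were at −0.25, −0.17 and −0.16, and *Cd163* and *Itgam* at 0.09 and 0.17. Of 5 T and NK cell markers, 2 were lower with dexamethasone than with IgG, *Cd3d* by 0.43 and *Cd3e* by 0.35. Their adjusted p was 0.00206 and 0.0492. *Cd2*, *Nkg7* and *Gzmb* were not called there, at −0.08, −0.003 and 0.03. The mean of the 5 was 5.14 to 5.21 with IgG and 4.87 to 5.21 with dexamethasone. *Cd3d* averaged only 4.63 with IgG and 4.20 with dexamethasone, below the dim *Lif* at 4.88 and 4.62. Against naïve, where the fold limit also applied, 0 of the 5 were called in any treatment. The poly-A controls and the actin signal given above also differed between dexamethasone and IgG corneas.

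*Socs2*, best known as a feedback inhibitor of growth hormone signalling through STAT5, stood apart with dexamethasone. It was 6.10, 5.62, 5.69 and 5.87 on the naïve arrays, 5.73, 6.04, 6.13 and 5.71 with IgG, 5.89, 5.75, 5.78 and 5.85 with anti-*Vegf*, and 6.15, 6.45, 6.50 and 6.55 with dexamethasone. Every dexamethasone cornea was above every other cornea, by 0.03 over the highest IgG array and by 0.06 over the highest naïve array. *Socs2* was 1.51-fold higher than naïve with dexamethasone (0.59, SE 0.12, adjusted p = 0.00193), at the limit of 1.5, and missed that limit after centring on reference genes (0.44) and without dexamethasone F26, F27 or F30 or naïve 2 or 3 (0.53 to 0.58). It was 1.43-fold higher than IgG (0.51, adjusted p = 0.0138) and 1.51-fold higher than anti-*Vegf* (0.60, adjusted p = 0.00862). With IgG and anti-*Vegf* it was 0.08 and −0.00 from naïve (95% confidence intervals −0.18 to 0.34 and −0.26 to 0.25). Hence *Socs2* and *Socs3* were called in opposite directions between dexamethasone and IgG corneas.

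*Socs1*, which blocks JAK kinases directly and is known for limiting interferon signalling, was even on its brighter probe set, at 5.93 to 6.54 on all arrays with differences from naïve of 0.04, −0.02 and −0.01 (SE 0.13). Its dimmer probe set, at the 31.9th percentile of all probe sets, read 5.03, 4.81, 5.41 and 5.45 on the naïve arrays. It read 6.05, 5.89, 5.61 and 5.65 with IgG, 5.66, 5.39, 5.60 and 5.41 with anti-*Vegf*, and 5.19, 5.30, 5.33 and 5.91 with dexamethasone. The IgG corneas lay above all naïve corneas, while the other treatments overlapped with them. On this probe set *Socs1* rose 1.54-fold with IgG (0.62, SE 0.17, adjusted p = 0.0106), and the differences of 0.34 with anti-*Vegf* and 0.25 with dexamethasone were not called (adjusted p = 0.155 and 0.325).

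*Cish*, the founding member of the family and a target of STAT5, had no call on either of its 2 probe sets. The brighter one was 7.60, 7.78, 7.96 and 7.72 on the naïve arrays, 8.16, 7.77, 7.89 and 7.60 with IgG, 8.16, 7.61, 7.18 and 7.64 with anti-*Vegf*, and 7.58, 7.60, 7.72 and 8.10 with dexamethasone. All groups overlapped, and the differences from naïve were 0.09, −0.12 and −0.02 (SE 0.17). The dimmer one spread over 1.08 among naïve corneas alone. Dexamethasone minus IgG was −0.68 there (95% confidence interval −1.24 to −0.12, adjusted p = 0.122).

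**Figure D3:**
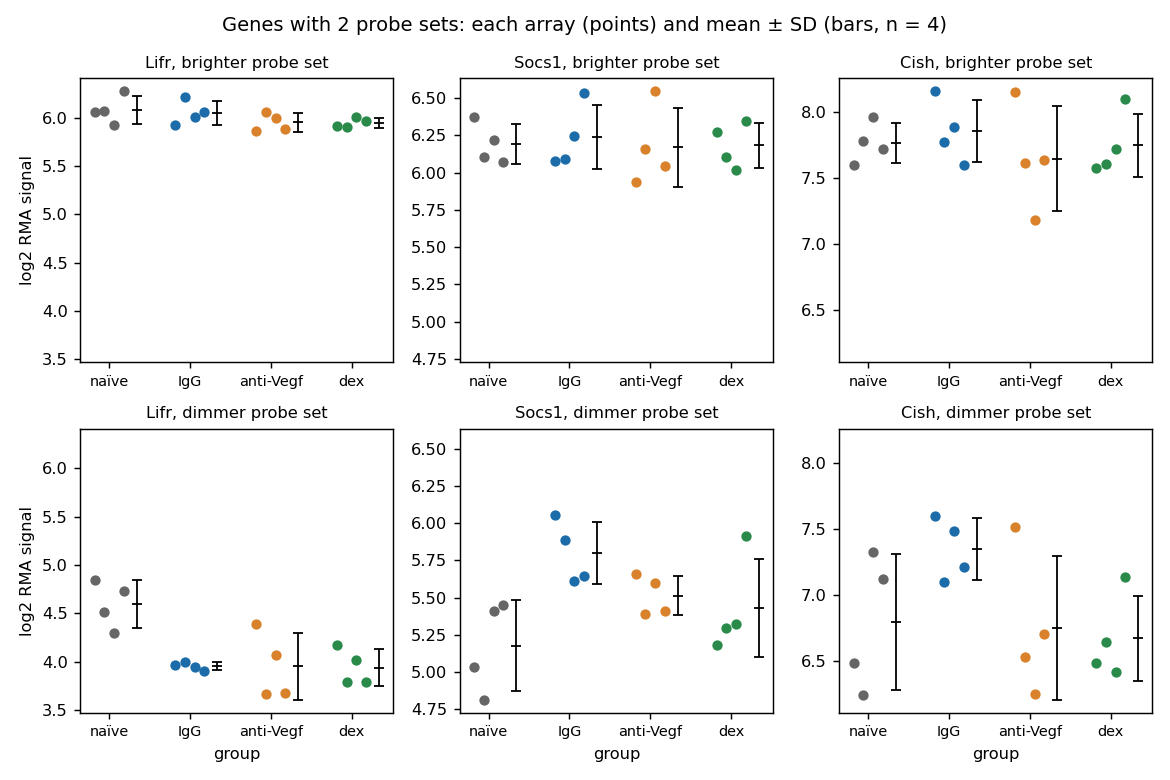
Log2 RMA signal (y axis) of the 3 genes with 2 probe sets, the brighter above and the dimmer below, with 1 point per array and the mean ± SD of 4 arrays. The dimmer probe sets of Lifr and Socs1 differ between naïve and IgG corneas, whereas the brighter ones of the same genes lie level across the groups.

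The stretch of 250 bases before the annotated transcription start was searched on both strands. The letters were TTCNNNGAA, to which STAT dimers bind, and AGAACA, a core motif of the glucocorticoid receptor. RefSeq promoters of the GRCr8 build were at hand for 7 of the 10 genes, namely *Cntf*, *Lifr*, *Osmr*, *Jak2*, *Socs1*, *Socs3* and *Cish*. The STAT letters stood in 2 of the 7, beside 7.67% of all 33469 promoters of that length, and the receptor motif in 0 of the 7, beside 17.5% of all. *Cish* held 4 matches, whose first bases lay 241, 230, 136 and 119 bases before the start, and *Socs1* held 1, at 196 bases. Both stretches are on the plus strand, *Cish* at chr8:116850719-116850968 and *Socs1* at chr10:5389324-5389573. They are shown because they are the 2 SOCS family promoters with a match, with the matches in capitals.
Cish: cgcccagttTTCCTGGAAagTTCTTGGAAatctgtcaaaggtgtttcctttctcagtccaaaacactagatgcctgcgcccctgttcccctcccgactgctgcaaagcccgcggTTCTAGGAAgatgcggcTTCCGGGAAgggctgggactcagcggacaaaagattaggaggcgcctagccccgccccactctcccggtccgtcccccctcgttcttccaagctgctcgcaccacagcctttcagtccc
Socs1: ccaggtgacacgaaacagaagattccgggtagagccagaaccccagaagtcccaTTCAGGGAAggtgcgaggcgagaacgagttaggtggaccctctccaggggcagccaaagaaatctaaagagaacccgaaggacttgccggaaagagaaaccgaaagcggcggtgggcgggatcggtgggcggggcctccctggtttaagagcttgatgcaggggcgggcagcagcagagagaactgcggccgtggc
The matches do not overlap, and a match is a run of letters, not a site shown to be bound. *Cish*, with 4 matches, had no called change here. *Socs3*, with the largest differences from naïve of the 9 genes, had no match in its window. This says only that these letters are not in those 250 bases. The window is set by the RefSeq start, and which start the cornea uses was not tested. STAT sites of *Socs3* outside the window were not looked for.

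**Figure D4:**
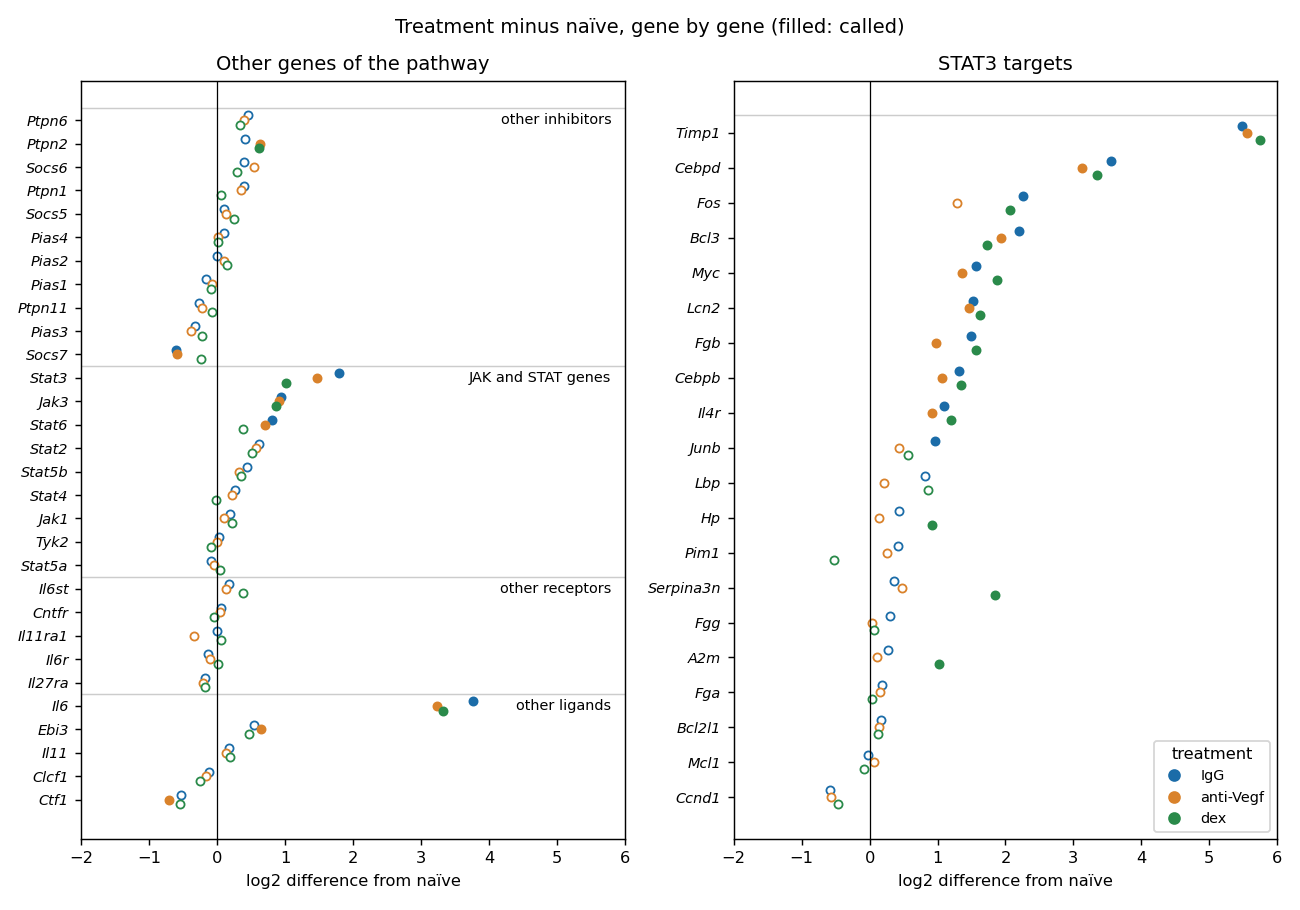
Log2 difference from naïve (x axis) of each measured gene of the other pathway lists (left) and of the STAT3 targets (right), with 1 point per treatment and filled points for calls. Il6 and Stat3 are the largest of the left panel and Timp1 and Cebpd of the right, while the receptors have no filled point.

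Of the rest of the pathway, the ligands showed 1 large change. *Il6* itself was 3.13 to 3.95 on naïve arrays and 6.79 to 7.61 with IgG, 4.68 to 7.90 with anti-*Vegf* and 4.72 to 8.65 with dexamethasone, and was called higher in all 3 treatments with no overlap. Of the 5 measured ligands of 8 listed, 1, 2 and 1 were called higher with IgG, anti-*Vegf* and dexamethasone and 0, 1 and 0 lower. The second rise was *Ebi3*, the shared chain of IL-27 and IL-35, at 0.64 with anti-*Vegf* beside 0.55 and 0.47, which stayed under the fold limit, and the fall was *Ctf1*, cardiotrophin 1, at −0.72 with anti-*Vegf* beside −0.53 and −0.54. The receptors stayed level, with 0 calls among 5 measured of 6 listed in any comparison. They include *Cntfr*, the binding receptor of CNTF, at −0.05 to 0.06 from naïve. The brightest of them was *Il6st*, at a mean of 10.7 in naïve corneas and 10.9, 10.9 and 11.1 in IgG, anti-*Vegf* and dexamethasone corneas, and its difference of 0.38 with dexamethasone had an adjusted p of 0.0188 but stayed under the fold limit.

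Of the other JAK and STAT genes, 3 of 9 measured (10 listed) were called higher with IgG, 3 with anti-*Vegf* and 2 with dexamethasone, and 0 lower. *Stat3*, the main transcription factor of the pathway, was 3.46-fold, 2.78-fold and 2.01-fold above naïve (log2 differences 1.79, 1.47 and 1.00, SE 0.28, adjusted p = 0.000211, 0.000913 and 0.0147). Its means thus stood in the same order as those of *Socs3*, and dexamethasone minus IgG was −0.79 (adjusted p = 0.0844) with arrays that did not overlap. The dexamethasone arrays, at 9.49 to 10.79, did overlap the naïve arrays, at 8.41 to 9.80. *Jak3*, the kinase of lymphoid and myeloid cytokine receptors, was higher by 0.94, 0.90 and 0.86. *Stat6*, which serves IL-4 signalling, rose by 0.81 and 0.70 with IgG and anti-*Vegf*, was 0.38 from naïve with dexamethasone, and was lower with dexamethasone than with IgG by 0.44 (adjusted p = 0.0446). *Jak1*, the brightest of the list, differed from naïve by 0.19, 0.10 and 0.22 and had no call.

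Of 11 measured inhibitors of the pathway beyond the 4 SOCS family genes above (12 listed), 0, 1 and 1 were called higher with IgG, anti-*Vegf* and dexamethasone and 1, 1 and 0 lower. *Socs7* was lower by 0.60 with IgG and by 0.59 with anti-*Vegf*, at the fold limit, and was higher with dexamethasone than with IgG by 0.37 (adjusted p = 0.0232) and than with anti-*Vegf* by 0.36 (adjusted p = 0.0343). *Ptpn2*, a phosphatase that removes phosphate from JAK and STAT proteins, was higher by 0.63 with anti-*Vegf* and 0.61 with dexamethasone, and 0.41 from naïve with IgG, under the limit. The rises of *Ptpn2* were not called after centring on reference genes, and the falls of *Socs7* were not called after cyclic loess. *Ptpn1*, its close relative, was lower with dexamethasone than with IgG by 0.34 (adjusted p = 0.0285). *Ptpn11*, the brightest of the list, averaged 10.1 in naïve corneas and had no call.

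Of 20 textbook STAT3 targets, all measured, 10 were called higher with IgG, 8 with anti-*Vegf* and 12 with dexamethasone, and 0 lower (1, 1 and 2 after centring on reference genes), with medians of 0.89, 0.46 and 1.11 beside the −0.01, −0.01 and 0.00 of all genes. The largest rises were those of *Timp1*, an inhibitor of metalloproteinases, at 5.48, 5.55 and 5.74 in IgG, anti-*Vegf* and dexamethasone corneas, and *Cebpd*, an acute phase transcription factor, at 3.56, 3.13 and 3.35. *Bcl3*, a cofactor of NF-κB, rose by 2.20, 1.94 and 1.72. *Myc*, the growth regulator, rose by 1.56, 1.36 and 1.88. *Fos* was 2.26, 1.29 and 2.07 above naïve, and the anti-*Vegf* value was not called (adjusted p = 0.116). Between dexamethasone and IgG the list moved both ways, with 2 genes higher and 1 lower. *Serpina3n* and *A2m*, inhibitors of proteases and known in rat as acute phase genes, were higher with dexamethasone than with IgG by 1.49 and 0.75 (adjusted p = 0.000128 and 0.00569), and *Pim1*, a survival kinase, was lower by 0.95 (adjusted p = 0.00126). Against anti-*Vegf* 3 were higher (*Serpina3n* 1.37, *A2m* 0.92 and *Hp* 0.78) and 1, *Pim1*, was lower by 0.78. Several of these genes also answer to glucocorticoids or are made by neutrophils, which these arrays do not separate. Anti-*Vegf* and IgG differed in 0 of the 20.

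As a check of exposure to the steroid, 8 of 8 listed glucocorticoid targets were measured, and 7 were higher with dexamethasone than with anti-*Vegf* and 5 higher than with IgG, with 0 lower in either. Against naïve, 6 were higher with dexamethasone (4 after centring on reference genes) and 0 lower, whereas with IgG 2 were higher and 2 lower and with anti-*Vegf* 1 was higher and 2 lower. *Tsc22d3*, which encodes the GILZ protein, was 10.5 to 11.6 with dexamethasone and 8.83 to 10.01 with IgG, a difference of 1.94 (adjusted p = 0.000538), and *Fkbp5*, a chaperone of the steroid receptor, was higher by 1.67 (adjusted p = 0.007). *Fkbp5* averaged 9.24 with dexamethasone and 9.27 in naïve corneas but 7.56 with IgG, and it was called lower than naïve by 1.70 with IgG and by 2.14 with anti-*Vegf*. *Tsc22d3* was called lower than naïve by 0.84 with IgG and higher by 1.10 with dexamethasone. *Dusp1*, a phosphatase of MAP kinases and the brightest of the list, was higher than with anti-*Vegf* by 1.02 (adjusted p = 0.0181) and 0.13 from IgG. Between dexamethasone and IgG, *Socs2* was called in the direction of these genes and *Socs3* in the opposite one. Against naïve, both were called higher with dexamethasone. Whether the steroid receptor acts on either gene was not tested.

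The genes most like the members over the 12 sutured arrays, among the genes with a mean signal above the median of all genes, are given by Pearson correlation as a description. These arrays share groups, so the likeness holds differences between treatments and between arrays of 1 treatment alike. For *Socs3* they were *St3gal4* (0.90), *Gcnt2* (0.89) and *Qrich1* (0.89), and for *Cntf* *Nudt21* (0.90), *Sdr16c5* (0.86) and *Metap1* (0.86). For *Lif*, at its low signal, they were *Cxcr5* (0.94), *Ngb* (0.93) and *Kcnh3* (0.92), and for *Osm* *Cd63* (0.80), *Tpst1* (0.76) and *Slc39a13* (0.74).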

How the data were processed

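The deposited file holds a log2 signal for each probe set. Before deposit the authors had corrected the scans for background, normalized them and taken log2 in the Affymetrix expression and transcription consoles, with RMA, per the labels. These deposited values were analysed without further scaling, on 16 arrays with medians of 6.55 to 6.62. The number of arrays limits the precision. The 57 control probe sets were left out of the tests. Of the other 31042, 20826 had 1 gene symbol, 436 had several and 9780 had none. Differences were tested with limma 3.58.1 in R 4.3.3 (group means, moderated variances, 12 residual degrees of freedom) and adjusted over the 31042 probe sets by Benjamini-Hochberg. The scripts were tested on simulated data. The members, lists and tests were chosen with earlier results of these data known. All member probe sets were named. The plan for each pathway list was to name up to 4 called genes with the largest changes per comparison and the brightest gene. It was not followed in full. *Lcn2* of the STAT3 targets and *Klf9* and *Nfkbia* of the glucocorticoid targets had large changes but were left out of the results above. *Cntfr*, *Zfp91* and the marker genes fall outside the plan and were picked with values seen. Alternatives were ordinary variances, a mean-variance trend, array weights, a fit of the compared groups only, cyclic loess, centring on 8 measured reference genes, a filter on dim probe sets, the mean or any of a gene's probe sets, another fold limit and leaving out each array. Array scans, protein and qPCR measurements were not analysed here.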

Additional observations from a re-analysis of the deposited data

Results flagged for a closer look

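In IgG corneas, *Socs3* on array F23 was 9.42, above the other 3 arrays, which lay close together between 8.90 and 8.98. The IgG range of 0.52 was still smaller than the 0.88 with anti-*Vegf* and the 1.35 with dexamethasone. Of 36 sets of 4 arrays tested for such a sample, 1 was marked, and chance marks about 1 in 20. With that array left out, the call of *Socs3* against naïve and against dexamethasone was kept.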

How the results depend on the processing

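The count of called genes was 3, 3, 3, 2, 2 and 0 for IgG, anti-*Vegf* and dexamethasone against naïve, dexamethasone against anti-*Vegf* and against IgG, and anti-*Vegf* against IgG. It became 5 for IgG against naïve with any probe set of a gene, where *Socs1* was added as higher and *Lifr* as lower. The same setting added *Lifr* as lower for anti-*Vegf* and for dexamethasone against naïve. The count became 1 for dexamethasone against IgG with a fold limit of 1.5, which *Socs2* does not reach. With single arrays left out the counts lay between 2 and 3, 3 and 3, 2 and 4, 2 and 2, 2 and 3, and 0 and 0. Centring on reference genes moved the median of all genes against naïve to −0.15, −0.19 and −0.15, and took *Cntf* with IgG (0.47) and *Socs2* with dexamethasone (0.44) under the fold limit. The same limit was missed by *Cntf* with IgG without IgG F19 (0.54) or naïve 4 (0.56), and by *Socs2* against naïve without dexamethasone F26, F27 or F30 or naïve 2 or 3 (0.53 to 0.58). *Lif* was called lower with dexamethasone than with IgG without F30 (−0.35, adjusted p = 0.0471). Of 1344 single values recomputed over 10 settings and 16 left-out arrays, 1332 kept their side of the limits, 10 lost and 2 gained a call, and 0 called values changed sign, while 50 values that were uncalled throughout did, all of main size 0.12 or less. Under centring the STAT3 targets had 1, 1 and 2 genes lower than naïve beside 10, 8 and 12 higher, and 1 ligand was lower in each treatment. The other inhibitors had 0 higher than naïve under centring, and 0 lower under cyclic loess. No paired analysis was possible because the arrays of different groups share no replicate numbers. *Lif* and the dimmer *Lifr* probe set were too dim to exclude small changes.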
